A study of Mus musculus with 8 samples.

Results

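The comparison described here sets mouse embryonic stem cells in which TCF7 was put back (QT7) against cells with no full-length TCF/LEF factor at all (QKO). Its members are the 4 RNA sequencing samples titled QT7 1, QT7 2, QKO 1 and QKO 2, out of 8 in the series, and the direction is QT7 over QKO throughout. The other 4 samples are WT (n = 2) and QT7L1 (n = 2), the latter titled as the line with TCF7L1 put back. All 8 came from the E14TG2a line (strain 129/Ola) after 48 h in medium with 15% serum and the cytokine LIF. QKO is tagged as lacking both alleles of TCF7, TCF7L1, TCF7L2 and LEF1, and the series text describes a single copy of 1 factor returned to such cells. The genotype tag of QT7, however, reads TCF7(-/-) with TCF7L1(+/-), and the tag of QT7L1 reads TCF7(+/-) with TCF7L1(-/-); both lines are tagged TCF7L2(-/-) and LEF1(-/-). Titles and tags thus name opposite factors, and the groups here follow the titles. QT7 1 and QKO 1 are labelled clone A and QT7 2 and QKO 2 clone B, so each library stands for 1 clone and the n of 2 counts clones.

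TCF/LEF proteins are DNA-binding factors at the end of the Wnt pathway. With beta-catenin bound they activate target genes, and with TLE corepressors bound they hold the same genes down. In embryonic stem cells TCF7L1 is known chiefly as a repressor of pluripotency genes and TCF7 as an activator.

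The libraries held 31573536 to 43362627 counts assigned to genes, with 33576701 and 37794476 in QKO and 38153683 and 42314681 in QT7, and 16515 genes were tested. Levels are in CPM, the counts of a gene scaled by TMM to a library of 1000000 counts, and fold changes are on the log2 scale with their standard error (SE). A gene was called when its adjusted p in edgeR's quasi-likelihood test, with Benjamini-Hochberg adjustment over all 16515 genes, was under 0.05. The stem cell markers Pou5f1 (1250 to 2040 CPM), Sox2 (241 to 312 CPM) and Esrrb (729 to 936 CPM) were abundant in all 8 libraries. Markers of fibroblasts, the usual feeder cells, differed between clones, with Col1a1 at 51.0 and 5.82 CPM in QKO and at 2.58 and 13.2 CPM in QT7. The 15 such markers tested had a median of -1.48, with 5 below and 2 above QKO in both QT7 clones. Over all 16515 genes tested, 4909 were below and 5530 above in both QT7 clones. DESeq2 called 2 of the markers lower, beside 13.8% of all genes it tested. Without the filter on low counts edgeR called 9 of them lower, beside 8.58% of all genes in that run. By edgeR with the filter 1 passed, Pdgfrb, which rose by 1.49 ± 0.36 but not without QKO 1 (adjusted p = 0.105) or QKO 2 (0.0946). The summed level of the list was 627 and 515 CPM in QKO and 428 and 434 CPM in QT7, Postn, Lum and Dcn were too low to be tested, and the part of such cells in the results was not tested. In bulk samples, fewer cells of a type and less RNA per cell cannot be told apart. The 2 QT7 clones correlated less well with each other (r = 0.9815 in log2 CPM) than the replicates of the other groups (0.9901 to 0.9912), and genes that differ between them are described at the end.

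Transcripts of the targeted genes did not separate QT7 from QKO in the way the titles would have it. The level of Tcf7 (GRCm38 chromosome 11, 52252371 to 52283014) in QKO was 7.97 and 19.7 CPM, and in QT7 16.6 and 20.9 CPM, so that the ranges overlapped; WT had 59.6 and 61.9 CPM. Its fold change was 0.44 ± 0.36 (SE) and did not pass (adjusted p = 0.41). The gene was called without QKO 2 (adjusted p = 0.0197) and without the filter on low counts (0.0382). QKO had 38.3 and 39.1 CPM of Tcf7l1 (chromosome 6, 72626378 to 72789254) and QT7 27.4 and 22.4 CPM, lower in both clones, and the gene fell by 0.64 (SE 0.15, adjusted p = 0.0137). That call ended without QKO 1 (adjusted p = 0.0567), QKO 2 (0.0793) or QT7 2 (0.0513). For Tcf7l2 (chromosome 19, 55741820 to 55933654), QKO had 7.32 and 7.4 CPM and QT7 5.84 and 5.27 CPM (-0.41 ± 0.21, adjusted p = 0.173). Lef1 (chromosome 3, 131110471 to 131224356) was close to silent, with 0.9 and 0.804 CPM in QKO and 1.33 and 0.92 CPM in QT7 (0.40 ± 0.47, adjusted p = 0.573). Counts over a whole gene do not show whether a full-length transcript was made, and they do not settle which factor QT7 carries.

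Of the 16515 genes tested, 4449 (26.9%) differed between QT7 and QKO: 2451 (14.8%) were higher in QT7 and 1998 (12.1%) lower. In all 4449 the QT7 libraries did not overlap those of QKO, with 2451 above and 1998 below. Among the 16515 tested, 5530 genes were above and 4909 below in this way. For a called gene, a lack of overlap is therefore no further evidence. The rises were larger than the falls, with 1258 genes at least 2-fold higher and 315 at least 2-fold lower, while the median over all genes tested was 0.05. The count rested on the QKO clones: it was 2302 without QKO 1 and 1432 without QKO 2. In each of the 8 fits that leave out 1 library, 1149 of the 4449 were called (624 higher and 525 lower). Unless a loss is given beside it, each gene named below as having risen or fallen against QKO is among these 1149.

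**Figure D1:**
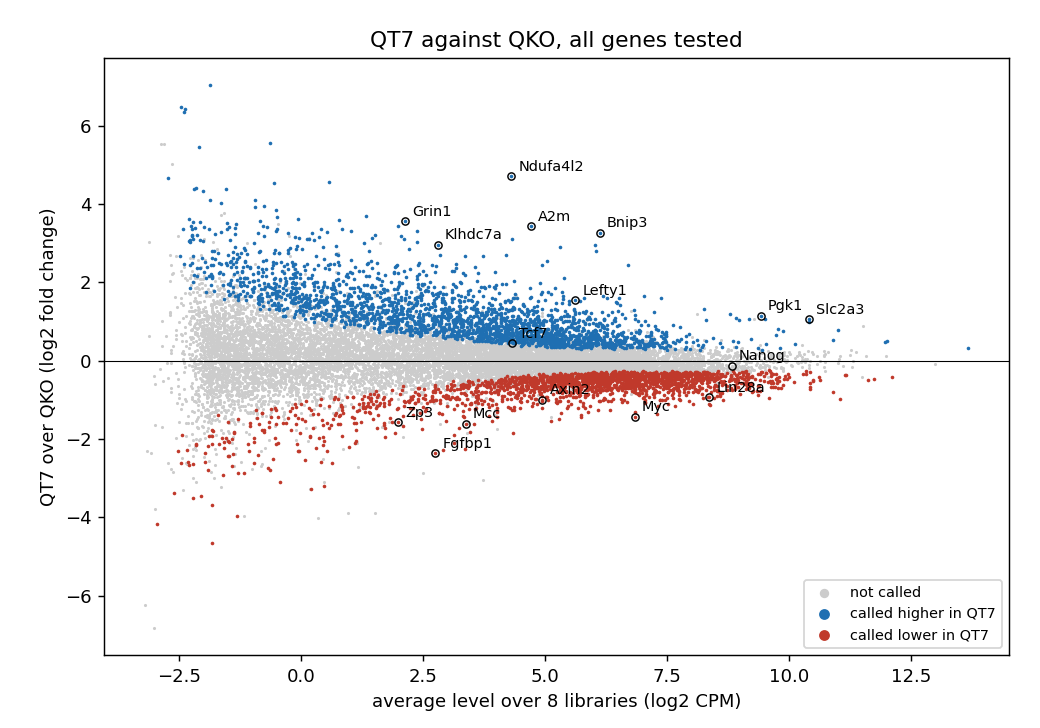
Log2 fold change of QT7 over QKO (vertical axis) against the average level over the 8 libraries in log2 CPM (horizontal axis); each point is 1 of 16515 genes tested, blue where called higher in QT7 (2451), red where called lower (1998) and grey where not called. Ndufa4l2 lies highest among the circled genes at 4.71, and Fgfbp1 lowest at -2.36.

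The largest rises included genes of the low-oxygen response and of glycogen use, beside genes of neurons, the circulation and the cell surface. Ndufa4l2 (chromosome 10, 127514967 to 127517154), a mitochondrial protein induced at low oxygen, was at 1.71 and 1.77 CPM in QKO and at 29.3 and 62.1 CPM in QT7, a rise of 4.71 ± 0.46 (adjusted p = 0.00136). Grin1 (chromosome 2, 25291181 to 25319187), a subunit of the NMDA glutamate receptor, was at 1.09 and 0.416 CPM in QKO and at 8.65 and 8.86 CPM in QT7 (3.56 ± 0.36, adjusted p = 0.000769). Both genes were far higher in each QT7 clone than in either QKO clone. A2m, a secreted protease inhibitor, went from 5.65 and 5.88 CPM to 59.9 and 65.0 CPM (3.44 ± 0.27), and Got1l1, a relative of aspartate aminotransferase, from 0.745 and 0.721 to 10.3 and 5.7 CPM (3.45 ± 0.38). Klhdc7a, a Kelch domain protein, rose by 2.96 ± 0.30, Ace, the angiotensin converting enzyme, by 3.11 ± 0.42, and Ppp1r3b, which directs a phosphatase to glycogen, by 3.02 ± 0.36. The cation channel gene Trpm1 lay at 2.79 and 1.75 CPM in QKO and at 34.7 and 6.56 CPM in QT7 (3.19 ± 0.83, adjusted p = 0.0352), so its size came mostly from QT7 1. Its call ended without either QKO clone (adjusted p = 0.131 and 0.203), either WT library (0.0702 and 0.0697) or either QT7L1 library (0.0597 and 0.058), and in the 4 libraries of QT7 and QKO alone (0.119).

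The largest falls were smaller and depended more often on 1 clone. Fgfbp1, a carrier that releases FGF from the matrix, was at 10.1 and 18.8 CPM in QKO and at 2.45 and 3.2 CPM in QT7 (-2.36 ± 0.46, adjusted p = 0.00824), and its call ended without QKO 2 (0.0524) or QT7 1 (0.0673). Lemd1 was at 7.57 and 15.7 CPM in QKO and at 1.33 and 4.07 CPM in QT7 (-2.10 ± 0.59, adjusted p = 0.0394). Its call ended without QKO 2 (0.189), QT7 1 (0.102), WT 1 (0.0554), WT 2 (0.0558), QT7L1 1 (0.0636) or QT7L1 2 (0.066), and with the replicate number as a block (0.0834). Nes, the intermediate filament gene nestin of neural progenitors, went from 25.8 and 47.2 to 9.54 and 10.6 CPM (-1.85 ± 0.42); its call ended without QKO 2 (adjusted p = 0.09), QT7 1 (0.145) or QT7 2 (0.118). Pou4f2, a POU factor of retinal neurons, fell by 1.81 (SE 0.43) but not without QKO 2 (adjusted p = 0.11) or in the 4 libraries alone (0.0513). Msc, a bHLH repressor, fell by 1.72 (SE 0.32) but not without QKO 2 (0.0502), and the serpin gene Serpinb9b fell by 1.68 (SE 0.43) but not without QKO 2 (0.132) or QT7 2 (0.0672). The other 4 kept their calls in every fit without 1 library: Mcc (-1.61 ± 0.24), the membrane protein gene Tlcd1 (-1.61 ± 0.27), the egg coat gene Zp3 (-1.57 ± 0.27) and the retinol dehydrogenase gene Dhrs4 (-1.55 ± 0.22). Zp3 lay at 10.3 and 11.4 CPM in QKO and at 3.7 and 3.59 CPM in QT7, and Dhrs4 at 24.0 and 26.1 against 7.32 and 9.82 CPM. A lack of overlap was required in choosing these genes.

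Genes of the oxygen response moved together. Cells sense oxygen through prolyl hydroxylases that mark HIF alpha subunits for destruction by VHL. At low oxygen HIF persists, pairs with ARNT and binds DNA at sites with the core ACGTG or GCGTG, which raises genes of mitophagy, sugar uptake, glycolysis and of the hydroxylases themselves. Of 25 HIF-induced mitochondrial and stress genes, 18 rose and 7 did not pass, with a median of 1.15 against 0.05 over all genes tested and against the 14.8% of genes called higher. Of 28 genes of glycolysis and glycogen 17 rose and 11 did not pass (median 0.74), and of 13 oxygen sensors and HIF factors 5 rose and 8 did not pass (median 0.43). The counts of members that rose were 11 of 25 without QKO 2, and 10 of 28 without QKO 1 and also without QKO 2.

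The 4 upstream stretches that follow are the 150 bases before the start of genes from these lists, shown because each holds the core ACGTG. They are RefSeq promoters (GRCm38.p6), given 5′ to 3′ on the strand of the gene, with each ACGTG or its reverse complement CACGT in capitals.
Bnip3 (chr7:138909507-138909656, minus strand): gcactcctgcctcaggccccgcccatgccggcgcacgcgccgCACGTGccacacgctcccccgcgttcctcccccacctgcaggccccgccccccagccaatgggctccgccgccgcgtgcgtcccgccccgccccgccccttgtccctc
Pgk1 (chrX:106186950-106187099, plus strand): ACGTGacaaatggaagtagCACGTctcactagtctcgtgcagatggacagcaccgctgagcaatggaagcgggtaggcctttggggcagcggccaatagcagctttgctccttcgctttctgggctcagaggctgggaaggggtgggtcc
P4ha1 (chr10:59323146-59323295, plus strand): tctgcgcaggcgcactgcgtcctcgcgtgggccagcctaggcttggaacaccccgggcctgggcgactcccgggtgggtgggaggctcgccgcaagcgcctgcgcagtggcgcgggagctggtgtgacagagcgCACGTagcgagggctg
Slc16a3 (chr11:120948917-120949066, plus strand): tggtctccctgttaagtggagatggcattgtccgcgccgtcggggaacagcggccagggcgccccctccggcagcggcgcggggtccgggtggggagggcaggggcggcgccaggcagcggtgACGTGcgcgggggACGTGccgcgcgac

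In Bnip3 the run CACGTG holds the core on both strands, with its first base 108 bases before the start. In Pgk1 the cores begin 150 and 131 bases before the start, in P4ha1 16 bases before it and in Slc16a3 27 and 14 bases before it. Over the whole promoter window (250 bases before to 50 after the start, both strands), ACGTG was found in 19.6% of all 32851 promoters in the table and in 24.6% of the 14705 promoters of genes tested. Among the 39 genes of the 3 lists that rose, 32 had an entry, and 26 of their 42 promoters (61.9%) held ACGTG. Among the 25 members of the same lists that did not rise, 24 had an entry, and 14 of 33 promoters (42.4%) held it. The share was 25.3% in promoters of all genes called higher and 28.0% in those of genes called lower. A match of 5 letters is a description of the sequence and not a measured binding site.

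Among targets of HIF, Bnip3 (chromosome 7, 138890836 to 138909519), a receptor that marks mitochondria for autophagy, was at 13.9 and 9.67 CPM in QKO and at 77.8 and 149 CPM in QT7 (3.27 ± 0.38, adjusted p = 0.00262). Ccng2, an atypical cyclin tied to cell cycle exit, went from 4.53 and 3.41 CPM to 30.7 and 37.9 CPM (3.11 ± 0.22, adjusted p = 0.000724), the smallest adjusted p on the list. Bhlhe40, a transcriptional repressor, went from 13.2 and 14.7 to 103 and 93.2 CPM (2.81 ± 0.23), and Car12, a carbonic anhydrase, from 0.465 and 0.61 to 5.1 and 4.88 CPM (3.20 ± 0.32). All 4 were several-fold higher in both QT7 clones than in both QKO clones, and each lay within or near the WT values (121 and 141 CPM for Bnip3, 21.8 and 31.8 CPM for Ccng2). Smaller rises were those of the vasodilator peptide gene Adm (2.69 ± 0.40), Ndrg1 (1.31 ± 0.20) and the disulfide-forming oxidase Ero1l (0.89 ± 0.14).

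Among the hydroxylases 4 rose, and of the HIF subunits Arnt alone did. P4ha1, which hydroxylates collagen, was at 33.2 and 30.4 CPM in QKO and at 89.0 and 111 CPM in QT7 (1.65 ± 0.17, adjusted p = 0.000769), and P4ha2 rose by 1.56 ± 0.25. Egln1, the main HIF prolyl hydroxylase, went from 24.2 and 21.6 to 55.9 and 81.8 CPM (1.59 ± 0.18), and Egln3 from 8.5 and 7.15 to 40.2 and 77.0 CPM (2.91 ± 0.35). Arnt, the partner subunit, went from 95.5 and 107 to 143 and 130 CPM (0.43 ± 0.10, adjusted p = 0.0123), but was not called without QKO 1 (0.0956). Hif1a itself was at 147 and 163 CPM in QKO and at 153 and 102 CPM in QT7, overlapping, with -0.29 ± 0.18 (adjusted p = 0.269); without QT7 1 it was called lower (0.0132). Epas1, which encodes the HIF-2 alpha subunit, stood at -0.57 ± 0.19 (adjusted p = 0.0555). It passed without QKO 1 (0.007), with RLE scaling (0.0485), with DESeq2 (0.00733), without the filter on low counts (0.000124) and with the replicate block (0.0447). The demethylase Kdm4b, itself an oxygen-dependent enzyme, rose from 33.5 and 29.4 to 58.3 and 68.2 CPM (1.01 ± 0.12). It was 1 of 3 that rose among 18 lysine demethylases, 16.7% beside the 14.8% over all genes tested. The others were not called without QKO 2.

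Sugar transport and glycolysis rose at several steps. The glucose transporter Slc2a3 was at 766 and 753 CPM in QKO and at 1620 and 1550 CPM in QT7 (1.06 ± 0.11, adjusted p = 0.000769). The lactate exporter Slc16a3 went from 47.8 and 56.8 to 146 and 185 CPM (1.66 ± 0.13), and phosphoglycerate kinase Pgk1 from 332 and 364 to 650 and 891 CPM (1.15 ± 0.16). Both QT7 clones lay above both QKO clones in each of these. The regulator Pfkfb3 (1.03 ± 0.13), the liver-type phosphofructokinase Pfkl (1.03 ± 0.16) and the enolase Eno2 (1.67 ± 0.28) also rose. Glycogen phosphorylase Pygl was at 0.9 and 0.915 CPM in QKO and at 4.85 and 13.4 CPM in QT7 (3.32 ± 0.50), and phosphoglucomutase Pgm1 at 14.8 and 12.2 against 70.8 and 139 CPM (2.96 ± 0.46); Pgm1 lost its call without QKO 2 (adjusted p = 0.0713). The nuclear-encoded respiratory chain did not follow: of 28 members 2 fell and 26 did not pass, with a median of -0.07. The share called was 7.14%, beside 26.9% over all genes tested. Cycs, the cytochrome c gene, fell by 0.67 (SE 0.11).

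**Figure D2:**
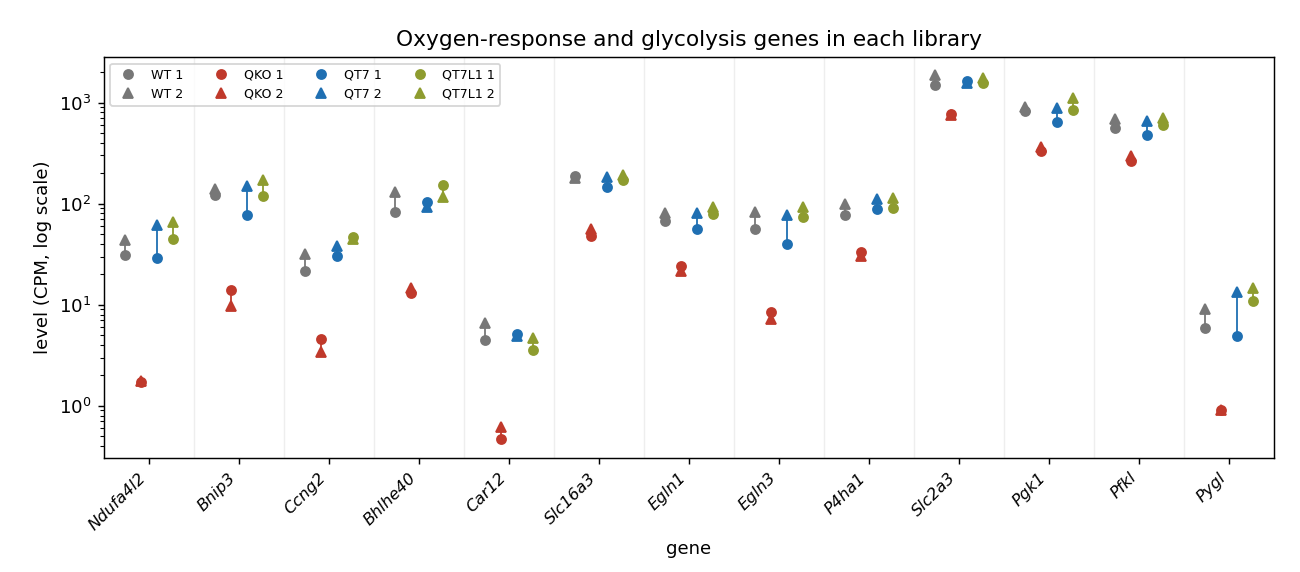
Level in CPM (vertical log axis) of 13 oxygen-response and glycolysis genes (horizontal axis) in each library; circles are replicate 1 and triangles replicate 2 of WT (grey), QKO (red), QT7 (blue) and QT7L1 (green), and lines join the 2 libraries of a group. Both QKO libraries lie below the other 6 in all 13 genes, as with Bnip3 at 13.9 and 9.67 CPM, and QT7 1 lies below QT7 2 in Ndufa4l2 (29.3 and 62.1 CPM).

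Genes of the p53 pathway and of lysosomes formed another group that was higher in QT7. The p53 protein halts the cell cycle and starts cell death after damage through a set of target genes. Of 29 genes in this pathway 19 were higher, 2 were lower and 8 did not pass (median 0.59, against 14.8% of all genes called higher), and 9 rose without QKO 2. Trp53inp1, which links p53 to autophagy and death, was at 89.0 and 77.0 CPM in QKO and at 203 and 186 CPM in QT7 (1.23 ± 0.11, adjusted p = 0.000769). Pmaip1, the death effector NOXA, went from 14.3 and 14.3 to 44.1 and 52.8 CPM (1.76 ± 0.19). Zmat3 (0.72 ± 0.11), Ddit4l (1.33 ± 0.21), Ccng1 (0.55 ± 0.09) and the apoptosome gene Apaf1 (0.66 ± 0.12) rose too. The 2 that fell were Trp53 itself, from 627 and 587 to 389 and 438 CPM (-0.55 ± 0.10, adjusted p = 0.00335), and Tigar, a phosphatase that slows glycolysis, from 132 and 123 to 75.8 and 81.1 CPM (-0.70 ± 0.10). The transcript of p53 and most of the listed targets thus differed in opposite directions.

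Lysosomes degrade cargo delivered by autophagy. On the list of lysosome and autophagy genes 64% were called, beside 26.9% over all genes tested. Of 25 lysosome and autophagy genes, 15 rose, 1 fell and 9 did not pass (median 0.52), and 9 rose without QKO 2. The protease gene Ctsd was at 203 and 188 CPM in QKO and at 440 and 369 CPM in QT7 (1.05 ± 0.11, adjusted p = 0.000769). It was higher in each QT7 clone. Wipi1, which helps to form autophagosomes, rose by 2.25 ± 0.30, the lysosomal membrane gene Lamp2 by 1.27 ± 0.19, Grn by 1.16 ± 0.19, the protease gene Ctsb by 0.76 ± 0.12 and the cargo receptor Sqstm1 by 0.66 ± 0.10.

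Genes of DNA replication fell together. Of 32 members 19 fell and 13 did not pass (median -0.36, against 12.1% of all genes called lower), and 11 fell without QKO 2. Pola2, a subunit of the primase complex, was at 132 and 147 CPM in QKO and at 59.9 and 80.3 CPM in QT7 (-0.99 ± 0.14, adjusted p = 0.00167). Pcna, the sliding clamp of the replication fork, went from 486 and 518 to 268 and 318 CPM (-0.78 ± 0.12), and the licensing factor Cdc6 from 126 and 165 to 81.0 and 85.2 CPM (-0.81 ± 0.13). The QT7 values were lower in both clones. The nucleotide synthesis gene Tk1 (-0.74 ± 0.12), the clamp loader Rfc3 (-0.66 ± 0.11) and Mcm10 (-0.61 ± 0.10) fell by similar amounts. Mitosis genes did not move as a group, with 4 of 24 higher and 5 lower (median -0.03), with no lower calls without QKO 1, QKO 2 or QT7 1. The phosphatase gene Cdc25b, which starts mitosis, rose by 0.83 ± 0.13.

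Regulators of G1, the phase before replication, went both ways, with more of them lower. On their list 64% were called, beside 26.9% over all genes tested. Of 25 members 11 fell, 5 rose and 9 did not pass (median -0.36), and 6 fell without QKO 2. Cyclin genes Ccnd1 (281 and 327 CPM in QKO, 156 and 172 CPM in QT7, -0.89 ± 0.13) and Ccnd2 (37.2 and 27.8 against 13.3 and 12.8 CPM, -1.32 ± 0.22) fell. The E2F family members E2f4 (-0.75 ± 0.10) and E2f8 (-1.38 ± 0.20), both known as repressors, fell as well. The retinoblastoma gene Rb1, a brake on E2F, went from 12.4 and 12.3 to 34.9 and 30.9 CPM (1.41 ± 0.16, adjusted p = 0.000929). Its relatives Rbl2 (1.05 ± 0.17) and Rbl1 (0.75 ± 0.13) rose too.

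MYC drives growth by raising genes that build ribosomes. Of the list that follows 76% were called, beside 26.9% over all genes tested. On the list of the MYC family, its MAX partners and ribosome biogenesis, 16 of 25 fell, 3 rose and 6 did not pass (median -0.46), and 9 fell without QKO 2. Myc was at 186 and 226 CPM in QKO and at 59.1 and 93.6 CPM in QT7 (-1.43 ± 0.21, adjusted p = 0.00263), against 132 and 119 CPM in WT. The nucleolar genes Bop1 (259 and 278 CPM in QKO, 133 and 134 CPM in QT7, -1.01 ± 0.12), Polr1b, a subunit of RNA polymerase I (-0.93 ± 0.11), Nolc1 (-0.86 ± 0.10) and Rrp9 (-0.79 ± 0.13) fell, as did the polyamine enzyme Odc1 (-0.67 ± 0.09). The members that rose were Mycl (1.17 ± 0.18) and the MYC antagonists Mxd4 (1.54 ± 0.24) and Mxi1 (0.72 ± 0.15), the last of which lost its call without QKO 2 (adjusted p = 0.0711).

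Pluripotency genes fell on the general list and were split on the naive list. The shares called were 63.2% and 30%, beside 26.9% over all genes tested. Of 19 general pluripotency genes and members of the LIN28 family 10 fell, 2 rose and 7 did not pass (median -0.47); the count that fell was 4 without QKO 1, 6 without QKO 2 and 6 without QT7 2. Lin28a, which blocks maturation of let-7 microRNAs, was at 460 and 536 CPM in QKO and at 262 and 260 CPM in QT7 (-0.93 ± 0.11, adjusted p = 0.00097). Trim71, itself a let-7 target, went from 322 and 311 to 208 and 212 CPM (-0.59 ± 0.09), Sall4 from 393 and 367 to 239 and 222 CPM (-0.72 ± 0.11) and Dppa2 from 167 and 171 to 117 and 99.7 CPM (-0.65 ± 0.11). The QT7 clones were lower in all 4. Tdgf1, a co-receptor for Nodal, rose from 672 and 631 to 967 and 1240 CPM (0.76 ± 0.14). Of 20 naive pluripotency genes 2 rose, 4 fell and 14 did not pass (median -0.07), with 2 higher and 1 lower without QKO 1 and 0 higher and 1 lower without QKO 2. Among them Pecam1 rose by 1.09 ± 0.21 and the nuclear receptor gene Nr5a2 fell by 0.60 (SE 0.12), and both calls ended without QKO 2 (adjusted p = 0.0549 and 0.0519).

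Nanog, a core pluripotency factor, did not separate QT7 from QKO. It was at 624 and 566 CPM in QKO and at 583 and 504 CPM in QT7 (-0.13 ± 0.10, adjusted p = 0.367), with overlapping ranges, against 308 and 288 CPM in WT. Pou5f1 was called lower in QT7 (-0.43 ± 0.12, adjusted p = 0.0228) and Sox2 higher (0.28 ± 0.09, adjusted p = 0.0381). The Pou5f1 call ended without QKO 1 or QT7 1 and in the 4 libraries of QT7 and QKO alone (0.0622). That of Sox2 ended without any 1 of the 8 libraries, in those 4 alone (0.0927) and with DESeq2 (0.0624). Of 21 formative and primed epiblast genes, 1 was higher and 5 were lower (median -0.24), 28.6% called beside the 26.9% over all genes. Without QKO 2 the lower calls were lost, without QT7 1 there were 2, and without QT7 2 there were 5 higher and 4 lower. The carbonic anhydrase gene Car14 was the member that rose (1.8 ± 0.35). Of 9 DNA methyltransferase and TET genes 3 fell and 6 did not pass (median -0.19), and the calls were lost without QKO 2 and without QT7 1. The de novo methyltransferase gene Dnmt3b was at 191 and 220 CPM in QKO and at 152 and 139 CPM in QT7 (-0.50 ± 0.15), below the 335 and 261 CPM of WT. Its call ended without QKO 1 (adjusted p = 0.0705), QKO 2 (0.216), QT7 1 (0.0731) or QT7 2 (0.135).

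**Figure D3:**
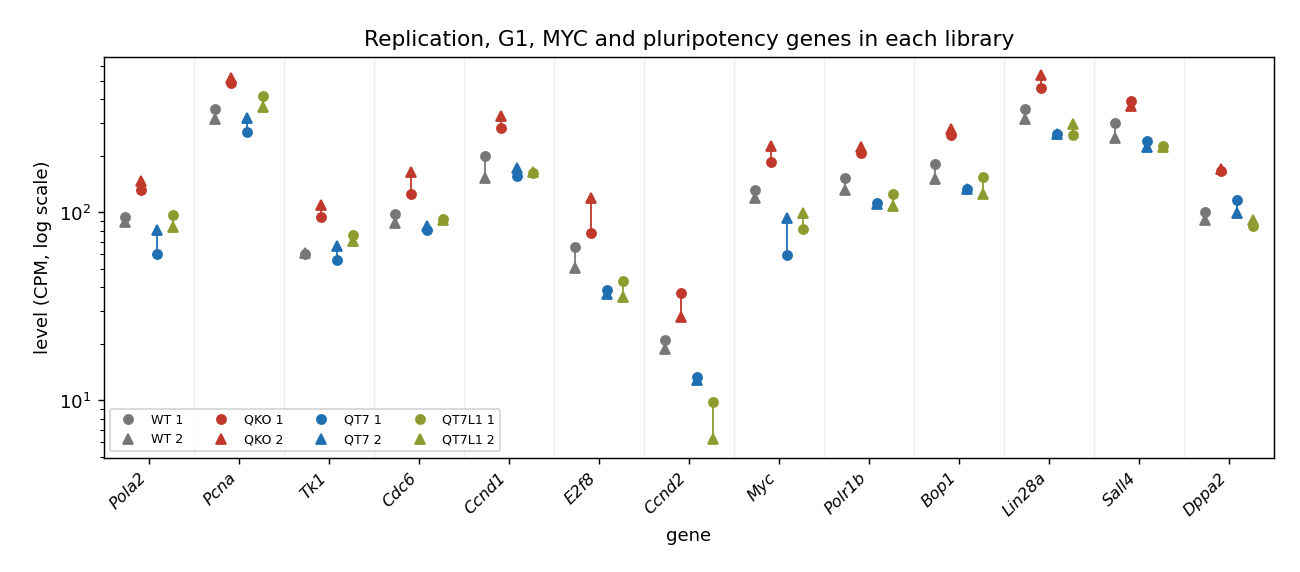
Level in CPM (vertical log axis) of 13 genes of replication, G1, MYC and pluripotency (horizontal axis) in each library, with circles for replicate 1, triangles for replicate 2 and colours by group. Both QT7 libraries lie below both QKO libraries in all 13, as in every gene called lower. Myc is at 59.1 and 93.6 CPM against 186 and 226 CPM.

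Wnt target genes went both ways, with 34.6% called beside 26.9% over all genes tested (14.8% higher and 12.1% lower). Of 26 feedback and direct target genes 5 rose, 4 fell and 17 did not pass, with a median of 0; without QKO 2 the counts were 1 and 2, and without QKO 1 they were 3 and 4. Axin2 (chromosome 11, 108920349 to 108950783), a scaffold that destroys beta-catenin and the usual readout of the pathway, was at 45.6 and 60.3 CPM in QKO and at 19.1 and 33.9 CPM in QT7 (-1 ± 0.24, adjusted p = 0.0166). Its 2 QT7 values lay on either side of the WT values of 21.9 and 20.7 CPM, and the call ended without QKO 2 (0.117) and in the 4 QT7 and QKO libraries alone (0.0689). Ccnd1 and Myc, both classical targets and described above, fell. Kremen1, a receptor for DKK inhibitors, rose from 15.5 and 14.7 to 24.2 and 26.3 CPM (0.74 ± 0.13). The inhibitor gene Nkd1 rose by 1.68 ± 0.39 but not without QKO 2 (adjusted p = 0.105), and the receptor gene Fzd7 by 0.40 ± 0.09 but not without QKO 1 (0.0713) or QKO 2 (0.0722).

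Other parts of the pathway had shares called below the 26.9% over all genes tested. Of 33 ligands, receptors and secreted modulators 4 rose, 2 fell and 27 did not pass (median 0.25), a share called of 18.2%; 2 rose without QKO 1 and 2 without QKO 2. The secreted DKK family gene Dkk3 was the clearest, at 2.23 and 2.16 CPM in QKO and at 12 and 8.19 CPM in QT7 (2.20 ± 0.25, adjusted p = 0.000929). Among 21 beta-catenin partners 2 rose, 3 fell and 16 did not pass (median 0.01), a share called of 23.8%; the count that rose was 1 without QKO 1, 1 without QT7 2 and 0 without QKO 2. The corepressor gene Tle4 went from 121 and 123 to 70.8 and 79.9 CPM (-0.69 ± 0.12), and the deacetylase gene Hdac1 from 359 and 342 to 216 and 220 CPM (-0.68 ± 0.11). Ctnnb1, which encodes beta-catenin, was at 827 and 808 CPM in QKO and at 969 and 909 CPM in QT7 (0.20 ± 0.09, adjusted p = 0.107). The letters CTTTGA, part of the sequence that TCF/LEF proteins bind, were found on either strand in 16.0% of all promoters in the table, in 10.6% of promoters of genes called higher, in 12% of those called lower, in 12.2% of those tested and not called and in 11.9% of those of all genes tested. In the list of Wnt target genes 15 of 26 had an entry, and 5 of their 18 promoters (27.8%) held these letters.

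In the Nodal pathway, which is held in check by its secreted antagonists, 8 of 19 members rose, 3 fell and 8 did not pass (median 0.22); 5 rose without QKO 1 and 3 without QKO 2. The share of this list called was 57.9%, beside 26.9% over all genes tested. Lefty1, an antagonist and a direct target of Nodal signalling, was at 21.6 and 17.2 CPM in QKO and at 54.8 and 58.0 CPM in QT7 (1.54 ± 0.16, adjusted p = 0.000769). Both QT7 values also lay below the WT values of 108 and 145 CPM (-1.17 against WT, adjusted p = 0.00472). The type I receptor gene Acvr1b rose from 47.2 and 43.4 to 84.1 and 83.9 CPM (0.89 ± 0.12).

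BMP, FGF, Hedgehog and early response genes each had members in both directions, with 33.3%, 34.6%, 40% and 42.1% called in that order. Over all genes tested 26.9% were called, 14.8% higher and 12.1% lower. The BMP pathway had 3 of 21 members higher and 4 lower, and 1 and 1 without QKO 2. The ligand gene Bmp7 rose from 1.52 and 1.33 to 5.82 and 9.71 CPM (2.45 ± 0.34), and Id3, a BMP target that blocks differentiation, fell from 75.0 and 78.8 to 37.3 and 42.7 CPM (-0.94 ± 0.16). The FGF and ERK genes had 4 of 26 higher and 5 lower, and 3 and 1 without QKO 2. The receptor gene Fgfr3 rose from 4.28 and 5.1 to 16.4 and 22.3 CPM (2.04 ± 0.25), and the ligand gene Fgf17 fell from 73.3 and 74.2 to 36.1 and 35.9 CPM (-1.03 ± 0.13). Of 15 Hedgehog genes 4 rose, 2 fell and 9 did not pass (1 rose without QKO 2, 2 without QKO 1 and 2 without QT7 2). The receptor gene Ptch1 rose from 43.3 and 39.3 to 72.1 and 71.5 CPM (0.80 ± 0.13), below the WT values of 140 and 161 CPM. Gli1 fell from 50.4 and 49.5 to 35.3 and 34.8 CPM (-0.51 ± 0.16, adjusted p = 0.0402). Its call ended without any 1 of the QKO or QT7 libraries. Among 19 immediate early genes 3 rose, 5 fell and 11 did not pass (1 fell without QKO 2 and 3 without QKO 1, and 5 rose without QT7 2); Ier3 (1.91 ± 0.26) and the phosphatase gene Dusp1 (0.86 ± 0.19) rose and the AP-1 subunit gene Fosl1 fell by 2.31 (SE 0.40).

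Lineage lists had between 20% and 45.5% of their members called, beside the 26.9% over all genes, and the higher calls of neuroectoderm, trophoblast and germline genes were all lost without QKO 2. The share of imprinted genes called was lower, at 17.2%. Of 20 endoderm genes 4 rose and 16 did not pass (median 0.52); 7 rose without WT 1 or without WT 2 and 2 without QT7 1. Apoe, a lipid carrier, went from 243 and 306 to 673 and 509 CPM (1.10 ± 0.16), and Hnf4a, a nuclear receptor of endoderm and liver, from 7.82 and 4.02 to 37.0 and 25.5 CPM (2.4 ± 0.33). The defining endoderm factors Gata6 (3.41 and 4.6 CPM in QKO, 8.14 and 4.16 CPM in QT7), Gata4 and Sox17 did not pass. Of 20 primitive streak genes 4 fell, among them Fgf17, and 16 did not pass (1 fell without QKO 2). Of 11 neuroectoderm genes 3 rose and 2 fell (Nes and Pou4f2), of 15 trophoblast genes 4 rose and 1 fell, and of 8 Hox genes 2 rose, neither of them without QKO 1 or without QKO 2. Imprinted genes were mostly not called: 4 of 29 were higher and 1 lower (1 higher without QKO 2, 2 without QKO 1 or either QT7L1 library, and 3 lower without QT7 2), with Igf2r at 67.3 and 68.6 CPM in QKO and 202 and 133 CPM in QT7 (1.30 ± 0.20) and Mest at 149 and 150 against 94.3 and 99.9 CPM (-0.62 ± 0.09). Among 23 germline genes 4 rose and 2 fell (7 rose without QT7 2 and 1 without QKO 1); the meiotic gene Sycp3 rose by 1.24 ± 0.25 but not without QKO 2 (adjusted p = 0.0656).

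Among cell surface genes, 10 of 33 axon guidance ligands and receptors rose, 2 fell and 21 did not pass (median 0.19); 5 rose without QKO 2. The plexin genes Plxnd1 (1.18 and 1.14 CPM in QKO, 5.13 and 5.89 CPM in QT7, 2.25 ± 0.35) and Plxnb2 (103 and 109 against 179 and 187 CPM, 0.80 ± 0.13) rose. So did the semaphorin gene Sema4c (1.61 ± 0.22), the ephrin gene Efna3 (1.20 ± 0.18) and the ephrin receptor gene Ephb3 (0.96 ± 0.15). Shares called were 36.4% of guidance genes, 28% of adhesion genes and 29.6% of matrix and integrin genes, beside 26.9% over all genes tested. The tight junction gene Cldn4 rose from 19.1 and 23.1 to 47.7 and 55.0 CPM (1.28 ± 0.16), 1 of 4 among 25 adhesion genes that rose, while 3 fell. Without QKO 1 the counts were 2 and 0 and without QKO 2 they were 2 and 1; 5 fell without WT 1 or WT 2, 0 without QT7 1, and 1 without QT7 2 or either QT7L1 library. Of 27 matrix and integrin genes 6 rose (3 without QKO 2) and 2 fell: fibronectin, Fn1, went from 539 and 544 to 960 and 926 CPM (0.80 ± 0.14) and the integrin gene Itga3 from 240 and 305 to 103 and 142 CPM (-1.15 ± 0.16). Shares for stress and sterol genes lay below the 26.9%, with 3 higher and 2 lower of 27 ATF4 genes and 1 higher and 2 lower of 27 cholesterol genes. For the ATF4 genes this rested on the QT7 clones, since 2 were higher and 10 lower without QT7 2, above that share, and 6 higher and 2 lower without QT7 1. Of the former, the stress factor Ddit3 rose from 7.57 and 6.51 to 13.9 and 17.5 CPM (1.16 ± 0.18).

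**Figure D4:**
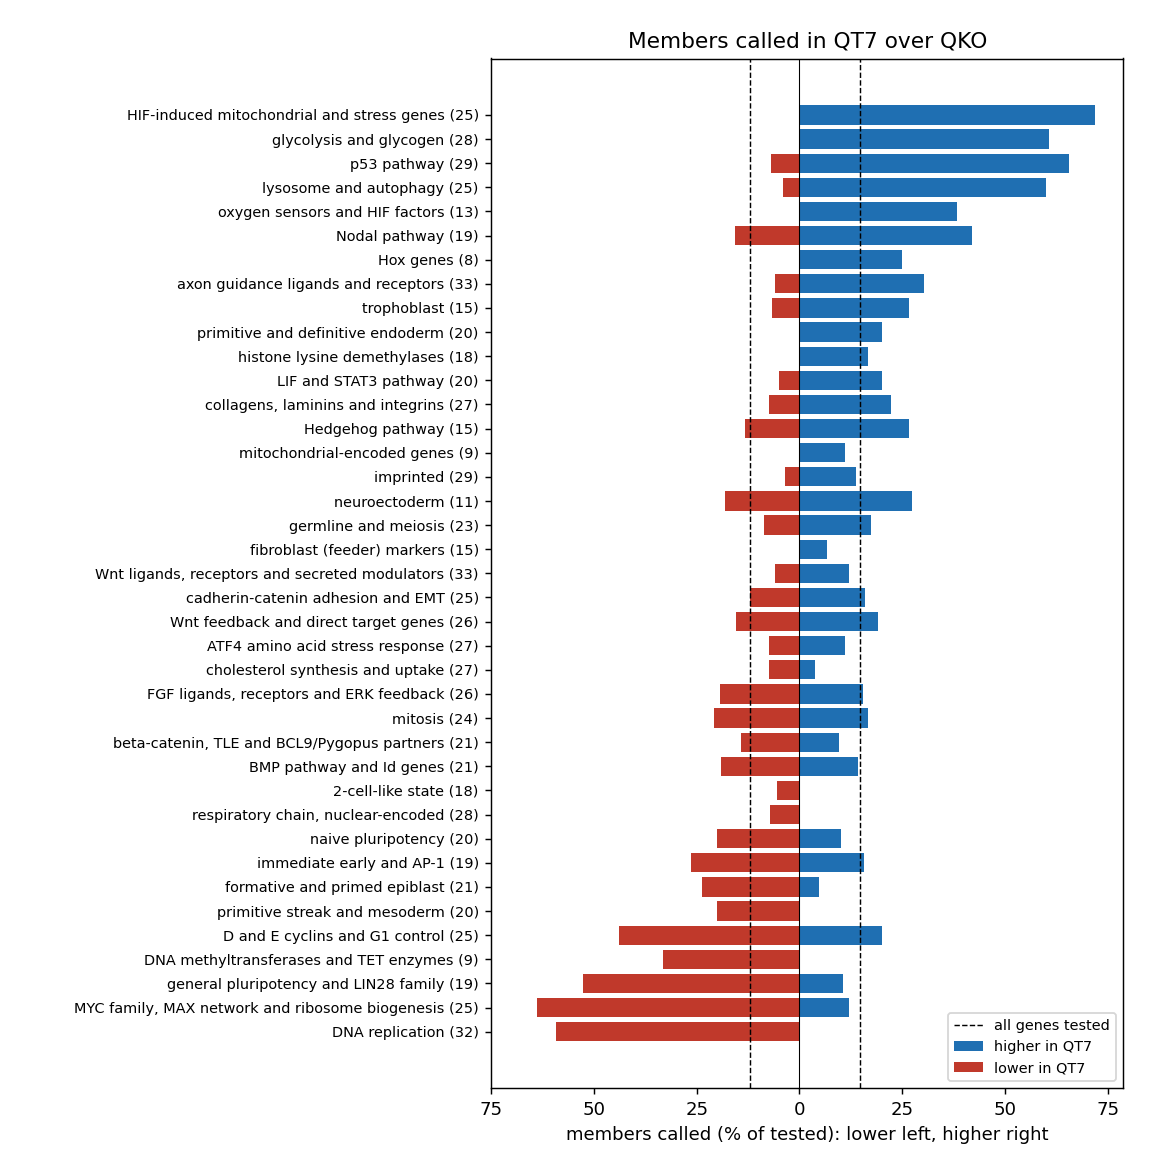
Share of tested members called lower (red, to the left) and higher (blue, to the right) in QT7 over QKO for each gene list with at least 8 members tested, in percent, with the number tested in brackets; dashed lines mark the shares over all genes tested, 12.1% lower and 14.8% higher. The HIF-induced list reaches 72% of members, all higher, and the DNA replication list 59.4%, all lower.

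Against WT, QT7 differed in 763 of 16515 genes (4.62%), of which 391 (2.37%) were higher and 372 (2.25%) lower. That count rested on single libraries: it was 52 without WT 1, 341 without WT 2, 390 without QT7 1 and 2023 without QT7 2, and 330 to 455 without any 1 of the QKO or QT7L1 libraries. Because QT7 is shared by both comparisons, the values are given side by side. QT7 was called above both QKO and WT in 144 genes and below both in 113. A2m was at 59.9 and 65.0 CPM in QT7 and at 23.1 and 32.0 CPM in WT (1.18 against WT, adjusted p = 0.032), and Klhdc7a at 21.8 and 16.9 against 3.44 and 6.46 CPM (1.95, adjusted p = 0.00736). Lrrc31 (1.55), Hnf4a (1.76), the calcium channel gene Cacna1h (1.26), Dglucy (1.30), Micall2 (1.13) and the netrin receptor gene Unc5a (1.26) were above WT too. Below both were the cholesterol exporter Abca1, at 7.02 and 12.4 CPM in QT7, 22.2 and 24.4 CPM in QKO and 34.7 and 36.3 CPM in WT (-1.87 against WT, adjusted p = 0.0056), and the neurofilament gene Ina, at 17.1 and 25, 40.8 and 66.9, and 82.2 and 67.2 CPM. Fam136a (-0.57), Mcc (-0.98), Vat1l (-0.93), Dock3 (-0.93), Lemd1 (-3.30) and Nes (-2.02) were below WT as well. None of these 16 genes kept its call against WT without WT 1 (adjusted p = 0.0508 to 0.321), and 5 to 9 of the 16 lost it without any other single library.

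A further 470 genes were called against WT and not against QKO. Nanog was among them, at 0.87 over WT (adjusted p = 0.0032) with the levels given above. On the list of the 2-cell-like state, a rare totipotent-like condition of stem cells, 8 of 18 members were called higher in QT7 than in WT, while none was called higher and 1 lower (Eif1a, -0.36 ± 0.10) against QKO; many of these genes have near-identical copies, so their counts are uncertain. The Eif1a call ended without QKO 1 (adjusted p = 0.0747), QKO 2 (0.133) or QT7 2 (0.0936). The germline list had 6 of 23 members higher than WT and the naive pluripotency list 5 of 20. Over all genes tested, 2.37% were called higher than WT. Whether these list counts hold without single libraries was not tested, and the count over all genes rested on single libraries, as given above. Of the 28 glycolysis and the 25 HIF-induced genes, 1 of each list was called lower than WT, beside 2.25% of all genes tested.

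**Figure D5:**
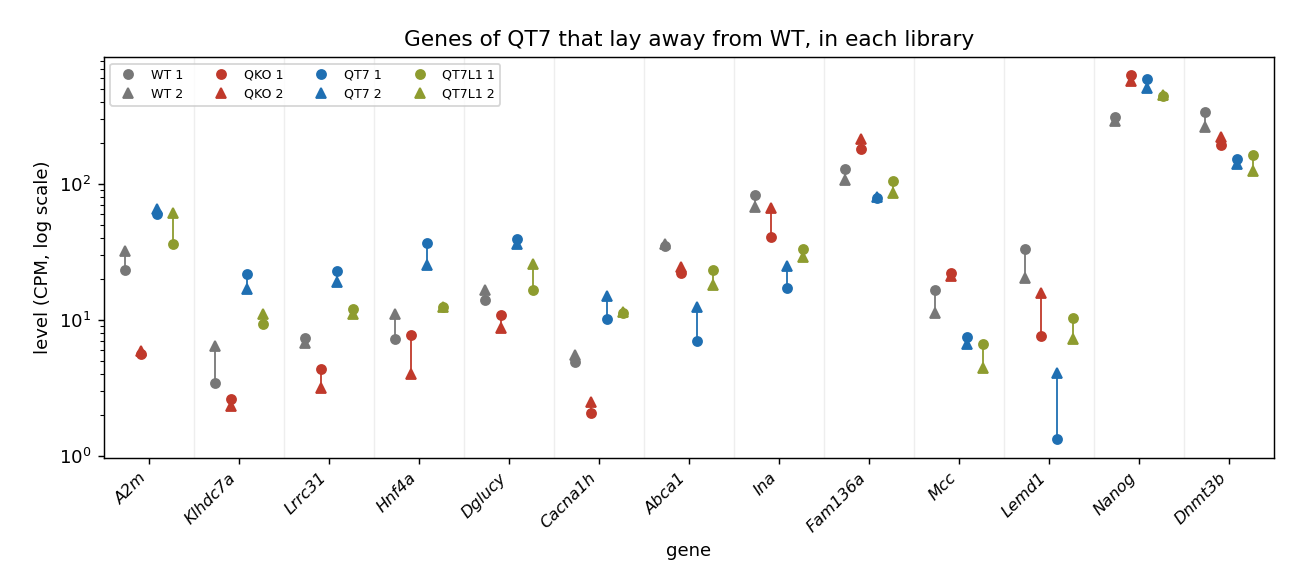
Level in CPM (vertical log axis) of 13 genes for which QT7 was called different from WT (horizontal axis) in each library, with circles for replicate 1, triangles for replicate 2 and colours by group. QT7 lies above WT and QKO from A2m to Cacna1h and below both from Abca1 to Lemd1; Nanog in QT7 (583 and 504 CPM) lies close to QKO (624 and 566 CPM).

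Between QT7 and QT7L1, 1 gene (0.00606%) was called by edgeR, the predicted gene Gm47283 on chromosome Y, while 1830 genes had an unadjusted p under 0.05 and DESeq2 called 235. The edgeR count was 1564 without QT7 2 and 3 without QT7 1, 17 and 14 without WT 1 and WT 2, and 0 without any 1 of the QKO or QT7L1 libraries, and it was 1030 without the filter on low counts. For the genes described above the difference between the 2 lines therefore did not pass, for example in Bnip3 (-0.36, adjusted p = 0.728), A2m (0.36, adjusted p = 0.582) and Lin28a (-0.08, adjusted p = 0.801). This does not show that the lines were alike, since the QT7 clones differed from each other.

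The 2 QT7 clones were more than 1 log2 unit apart in 1326 genes, against 730 for the 2 QKO clones. Transcripts of the mitochondrial genome were far more abundant in QT7 1: mt-Nd4 was at 951 and 204 CPM, mt-Nd5 at 1610 and 433 CPM and mt-Co1 at 7270 and 1980 CPM in QT7 1 and QT7 2, and mitochondrial counts made up 1.57% and 0.47% of the libraries. In QKO the same genes lay at 309 and 491, 413 and 565, and 1910 and 3080 CPM. In QT7L1 1 and QT7L1 2 they lay at 733 and 230, 1080 and 480, and 5440 and 2070 CPM. This split was thus not particular to QT7. Mitochondrial counts made up 1.15% and 0.48% of the QT7L1 libraries, 0.82% and 0.44% of WT, and 0.54% and 0.78% of QKO. The guidance receptor gene Nrp2 (33.0 and 7.96 CPM), the early response gene Egr1 (40.2 and 10.6 CPM) and the homeobox gene Rhox5 (47.1 and 12.6 CPM) were also higher in QT7 1. They split the same way in QT7L1 1 and QT7L1 2, at 21.8 and 7.8, 30.7 and 10.8, and 37.1 and 7.67 CPM. Higher in QT7 2 were the cell cycle inhibitor Cdkn1c (36.7 and 124 CPM in QT7 1 and QT7 2), the adenylate cyclase Adcy1 (7.91 and 25.3 CPM), the desmosome gene Pkp2 (35.3 and 106 CPM), the serine synthesis gene Phgdh (82.0 and 223 CPM), the glutathione enzyme Chac1 (7.71 and 20.6 CPM) and the glutamate transporter Slc1a3 (6.99 and 18.3 CPM). None of these 12 was called against QKO by edgeR (adjusted p = 0.199 to 0.98), while 8 passed without the filter on low counts. The mean level of the HIF-induced list shared the order of the latter group. Centred per gene over the 8 libraries, it was 0.13 in QT7 1 and 0.49 in QT7 2 against -1.07 and -1.14 in QKO. Single members went either way, with Bnip3 at 77.8 and 149 CPM and Bhlhe40 at 103 and 93.2 CPM in QT7 1 and QT7 2. Both QT7 clones lay above both QKO clones in the mean of this list. The list was chosen with earlier results of these data known and none of its called members overlapped, so this is no further evidence. Whether the clone differences bear on the fold changes was not tested.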

How the data were processed

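Per the labels' protocols, a stranded mRNA kit and 250 ng of total RNA were used for each library. Per the submitters' processing notes, reads were handled with bcl2fastq 1.8.4, STAR 2.4.0f1 and HTSeq on mm10 (GRCm38), and DESeq2 is listed under version 2.1.8.3; for HTSeq, its version, strand setting and annotation were not given in the sources used here, so overlapping and near-identical genes are uncertain. The authors deposited integer counts per gene for each library. Their deposited table of this comparison holds a mean normalized signal, log2 fold changes with standard errors, a test score and p-values. Of the genes in it, 4021 passed an adjusted p of 0.05 per the authors' deposited table; 3794 of those were also called here, all with the opposite sign, so it gives QKO over QT7.

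Of 47729 gene identifiers 47224 were named from the reference. The analysis used edgeR 4.0.16 under R 4.3.3 (filterByExpr, TMM scaling, 1 robust quasi-likelihood fit to the 8 libraries with a mean per group, 4 residual degrees of freedom), which left 16515 genes. The joint fit assumes that the spread is alike in the 4 groups. Log2 CPM used a prior count of 2. The fit was tested on simulated data. DESeq2 1.42.0, RLE scaling, no filter, a fold threshold of 1.5, the 4 libraries alone, a replicate block and leaving out each library were alternatives. The labels do not pair clones across groups. Coordinates are from GENCODE M21 and promoters from RefSeq (GRCm38.p6).

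The members and the 41 gene lists were chosen with earlier results of these data known, and some genes sit on several lists. Named by rule are the TCF/LEF genes and Axin2, the 12 largest rises and 12 largest falls (groups that do not overlap, average log2 CPM of 2 or more, no predicted name), up to 8 members per list by adjusted p, the 8 genes per direction with the largest fold among those called against both QKO and WT, and the 6 per direction with the largest ratio of the QT7 clones (average log2 CPM of at least 4). Genes chosen by these rules are in part not reported here. Hif1a, Mxi1, Ctnnb1 and the marker genes were named outside the rules, after their values were seen.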

Additional observations from a re-analysis of the deposited data

Results flagged for a closer look

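Gm47283, a predicted gene on chromosome Y, was at 47.0 and 49.3 CPM in QT7, 104 and 89.5 CPM in QT7L1, 54.6 and 49.3 CPM in QKO and 70.1 and 67.8 CPM in WT. It is the single gene whose change against QKO differed between the lines with TCF7 and with TCF7L1 put back, by -1.01 (adjusted p = 0.0467 in edgeR's quasi-likelihood test of QT7 over QT7L1). Both QT7 libraries lay below both QT7L1 libraries, and against QKO the gene stood at -0.11 (adjusted p = 0.497). The call ended without QKO 1 (adjusted p = 0.0633), QKO 2 (0.0642), QT7 1 (0.0547), QT7L1 1 (0.408) or QT7L1 2 (0.179). Other genes of chromosome Y differed between clones: Ddx3y was at 50.9 and 14.2 CPM in QT7, 7.54 and 4.23 CPM in QT7L1 and 11.4 and 40.4 CPM in QKO, and Uty at 16.6 and 1.47, 1.91 and 0.396, and 2.45 and 11.7 CPM. Their part in the result was not tested.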

How the results depend on the processing

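The number of genes called in QT7 over QKO was 1432 to 4355 when 1 library was left out and 579 when the test required a fold of 1.5 (483 higher and 96 lower); it was 4516 with RLE scaling, 4572 with DESeq2, 5373 without the filter and 3179 in the 4 libraries alone. With the replicate number as a block 4390 were called, and 5128 with the numbers of the QKO clones crossed, an alternative added after the data were seen (same-numbered QKO and QT7 clones deviated with a correlation of -0.205). In QT7 over WT the counts were 1287 with DESeq2, 2203 without the filter, 801 with the replicate block and 52 to 2023 without 1 library. In QT7 over QT7L1 they were 235 with DESeq2, 1030 without the filter, 2 with the replicate block and 0 to 1564 without 1 library. The block ended the calls of Lemd1 in QT7 over QKO and of Lemd1, Nes and Vat1l in QT7 over WT, and Epas1 passed with it.

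Leaving out 1 library gave 11 to 19 of the HIF-induced genes higher, 10 to 21 of glycolysis, 9 to 19 of p53 and 9 to 19 of lysosome genes, 11 to 18 of replication, 6 to 11 of G1, 9 to 17 of MYC and 4 to 11 of general pluripotency genes lower, 3 to 7 of Nodal and 5 to 10 of guidance genes higher. With a fold of 1.5 in the test the counts were 9, 8, 4, 4, 1, 2, 3, 1, 1 and 3 in that order.

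Phgdh, at 0.02 in QT7 over QKO, turned to -0.87 (adjusted p = 0.0063) without QT7 2 and to 0.58 (0.0319) without QT7 1. No other named gene that was called changed sign in any alternative run. With 2 clones a group, small changes can be missed, and why the count depends on the QKO clones was not tested.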
